A study of Caenorhabditis elegans with 4 samples.

Results

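On the X chromosome, 835 CFP-1 regions lay on the histone mark H3K4me3, out of 1217 CFP-1 regions on X and 7577 on all 6 nuclear chromosomes. The values come from ChIP-seq peak lists of whole late embryos of the nematode Caenorhabditis elegans, strain JA1597, aged 3.5 hours after collection and fixed for 10 minutes in 1% formaldehyde. The strain makes GFP-tagged CFP-1 from a dpy-30 promoter transgene placed at a single site on chromosome IV, and all 4 samples share it. The tagged protein was precipitated with an anti-GFP serum in 2 samples and H3K4me3 with its own antibody in 2 samples, numbered RC03 and RC04 for each antibody. A region is an interval of merged RC03 and RC04 peaks of an antibody, joined where they share at least 1 bp, that holds a peak of both lists. A member is a CFP-1 region on X that shares at least 1 bp with an H3K4me3 region.

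CFP-1 carries a CXXC zinc finger that binds unmethylated CpG-rich DNA, and it belongs to the COMPASS complex, whose methyltransferase trimethylates lysine 4 of histone H3. The mark is typically found at the promoters of transcribed genes, around the transcription start. In C. elegans hermaphrodites a condensin-type dosage compensation complex binds both X chromosomes and lowers their transcription, and the X carries few genes that are expressed in the germ line. Positions are given in build ce10, and the genes there were not analysed.

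The members were chosen by the peak calls of both antibodies in the same 4 lists, so their scores, widths and overlaps are given as descriptions, and regions are not replicates. A comparison over samples rests on 2 lists against 2, for which an exact permutation test cannot reach a two-sided p below 0.33. X is therefore set beside the range of the 5 autosomes, as a description with no test. The lists held 1501 and 1559 CFP-1 peaks on X and 1976 and 2169 H3K4me3 peaks on X. The lists give no read depth. The labels do not say whether RC03 and RC04 are separate cultures, and the differences between them may be technical. How much of the anti-GFP signal was independent of CFP-1 was not tested, as no list from embryos without GFP was used here.

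The share of X CFP-1 regions on the mark was 68.6% (95% exact binomial interval 65.9 to 71.2%, counting error only), beside 71.6% over all CFP-1 regions of the series and 72.2% over the autosomal ones. The rule itself fixed this contrast. On the autosomes the share ran from 67.4% on IV to 76.3% on III, so X lay within their range. The remaining 382 X CFP-1 regions touched no H3K4me3 region, and 333 of these had no H3K4me3 peak in either list. The threshold of 1 bp separated neighbouring values. The members with the smallest overlap, at X:11379205-11379704, X:10083311-10083485 and X:2779902-2780166, shared 2, 3 and 4 bp with the mark. Just outside, the CFP-1 region at X:4145072-4145293 ended directly before an H3K4me3 region (gap of 0 bp), and those at X:8305008-8305196 and X:8052943-8053378 lay 5 and 8 bp away. Of the 382 regions without the mark, 44 lay within 500 bp of it, and the median distance was 4998 bp.

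The CFP-1 scores of the members spanned nearly the whole range of the lists. The score is the peak caller's own value in −log10 units, deposited by the authors, and rises with depth and peak width. It ran from 1.95 to 191.7 in RC03, with a median of 23.0 and quartiles of 9.84 and 56.7. In RC04 it ran from 1.97 to 207.0, with a median of 22.8 and quartiles of 9.19 and 58.6. The X CFP-1 regions without the mark had medians of 8.32 in RC03 and 8.64 in RC04, below the lower quartile of the members in both lists. The groups overlapped widely, since the highest score without the mark was 181.9 in RC03. In percentile ranks, where a peak is ranked among all peaks of its list and a region takes the mean over both lists, the members had a median of 65.1 and the X regions without the mark 37.8. On the autosomes the CFP-1 regions with the mark had median CFP-1 scores of 23.0 (II) to 30.9 (III) in RC03 and 23.5 (II) to 30.7 (III) in RC04. The members thus equalled the lowest autosome in RC03 and lay just under it in RC04.

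The median H3K4me3 score at the members was 32.7 in RC03 and 32.1 in RC04. On the autosomes it ran from 42.3 (I) to 46.5 (III) in RC03 and from 40.7 (I) to 44.9 (III) in RC04. X was below every autosome in both lists. Only 133 members, or 15.9%, had an H3K4me3 rank above the 90th percentile of all H3K4me3 peaks, whereas 27% (V) to 31.6% (IV) of the autosomal regions did. At the lower end there was no such gap, as 10.9% of the members and 9.42 to 11.8% of the autosomal regions had an H3K4me3 rank under the 50th percentile. The ratio of the median score of members to that of all autosomal counterparts was 0.865 in RC03 and 0.837 in RC04 for CFP-1, a mean of 0.851 ± 0.020 (SD, n = 2). For H3K4me3 it was 0.734 and 0.754, a mean of 0.744 ± 0.014 (SD, n = 2). The difference between the antibodies was larger than the spread between their lists. The two-sided exact permutation test over the 4 lists gave p = 0.33, which is its lower limit. Where at least 50% of both intervals had to be shared, 132 members were left, and the direction turned: the median H3K4me3 rank was then 1.39 points above that of the autosomal regions.

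**Figure D1:**
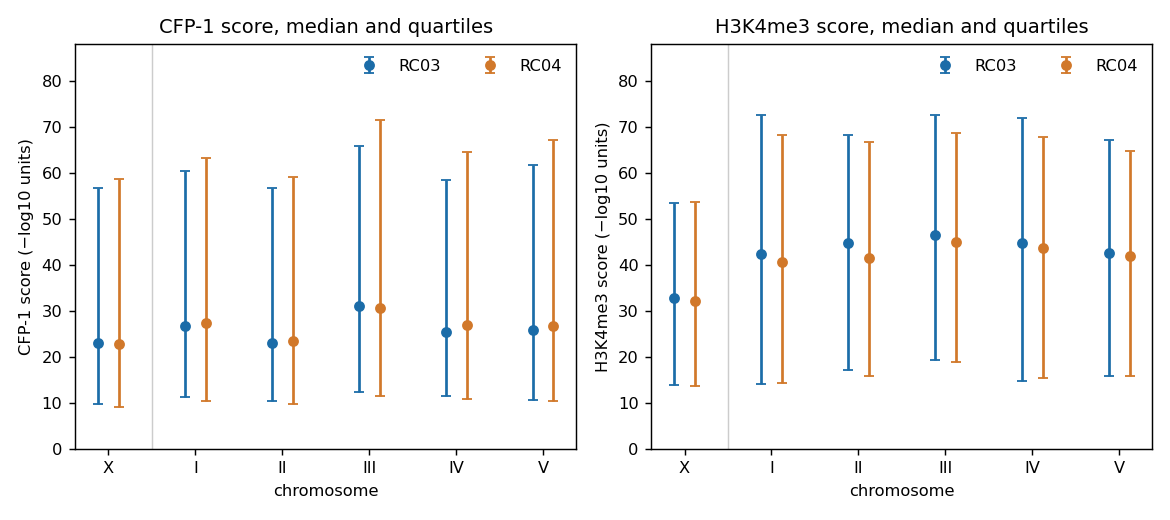
Median (points) and quartiles (bars) of the CFP-1 score (left) and the H3K4me3 score (right) at CFP-1 regions with H3K4me3, by chromosome, in −log10 units, for the lists RC03 and RC04. The X members have the lowest H3K4me3 medians, 32.7 and 32.1, while their CFP-1 medians, 23.0 and 22.8, lie close to those of chromosome II.

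At high CFP-1 ranks the H3K4me3 scores of the members lay below the autosomal range, and at low ranks within it. All CFP-1 regions with the mark were split into 5 equal groups by CFP-1 rank. In the lowest group, with 198 members, the median H3K4me3 score of the members was 16.0 in RC03 and 15.7 in RC04, within the autosomal ranges of 13.9 to 22.0 and 13.6 to 22.3. The second group, with 166 members at 17.7 and 17.9, was also within the autosomal ranges. In the middle group the members had 31.5 in RC03, under the lowest autosome at 34.2, and 31.3 in RC04, level with the lowest autosome at 31.3. In the fourth group the 164 members had 41.9 and 40.7, against 55.1 to 59.2 and 49.8 to 59.1 on the autosomes. In the highest group the 145 members had 58.6 and 56.8, against 68.8 to 74.9 and 64.8 to 71.6 on the autosomes. H3K4me3 thus increased with CFP-1 on X as on the autosomes, and the medians of X were below all 5 autosomes in both upper groups and both lists. Spearman's rho between the CFP-1 and H3K4me3 ranks was 0.47 across the 835 members, beside 0.49 to 0.53 across the regions of single autosomes. These points share libraries and the peak caller, and wider regions score higher for both antibodies.

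**Figure D2:**
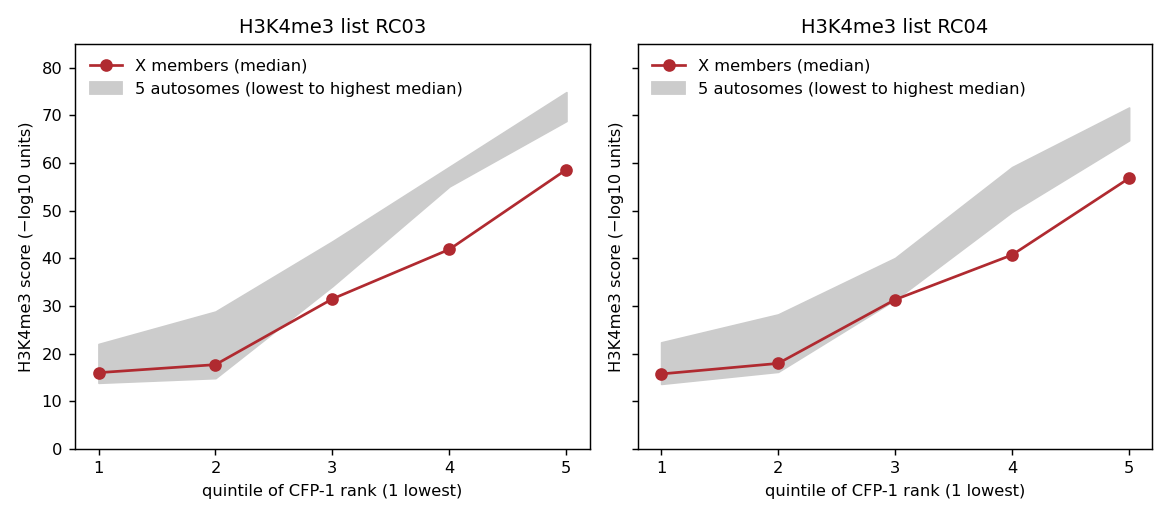
Median H3K4me3 score (y axis, −log10 units) of X members (red) in 5 groups of rising CFP-1 rank (x axis), for the H3K4me3 lists RC03 (left) and RC04 (right); the grey band spans the lowest to the highest autosomal median. The X line lies within the band in the 2 lowest groups and under it in the 2 highest, where it reaches 58.6 and 56.8.

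Width moved with the H3K4me3 score. The H3K4me3 regions at the members had a median width of 1063 bp (quartiles 656.5 and 1711.5 bp), and the autosomal medians ran from 1122 bp (I) to 1192.5 bp (II). The difference from the autosomal regions together, -91.0 bp, became -44.0 bp over the span of all H3K4me3 regions that a CFP-1 region overlapped, and turned to 19.0 bp where both intervals had to share at least 50% of their length. The CFP-1 regions themselves had a median width of 400 bp (quartiles 295.5 and 517.5 bp), beside 370.5 bp (II) to 394 bp (V) on the autosomes. That order turned where the peaks of either list were merged without requiring both, to a difference of -1.0 bp from the autosomal regions together. At like H3K4me3 width the H3K4me3 medians of the members were below all 5 autosomes in each group but the narrowest. Among regions of 557 to 957 bp the 194 members had median H3K4me3 scores of 24.6 in RC03 and 25.2 in RC04, just under the lowest autosomes at 25.4 and 25.3. Among H3K4me3 regions of 957 to 1316 bp, the members had median H3K4me3 scores of 42.7 in RC03 and 41.3 in RC04, against 54.8 to 57.9 and 51.7 to 55.7 on the autosomes. Among the widest, from 1961 bp, they had 46.6 in both lists, against 62.0 to 75.7 in RC03 and 59.7 to 72.8 in RC04. Among regions of up to 557 bp the members had 7.64 in RC03, within the autosomal range of 6.98 to 8.55, and 7.18 in RC04, level with the lowest autosome. Whether width takes part in the lower H3K4me3 scores within these groups was not tested.

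**Figure D3:**
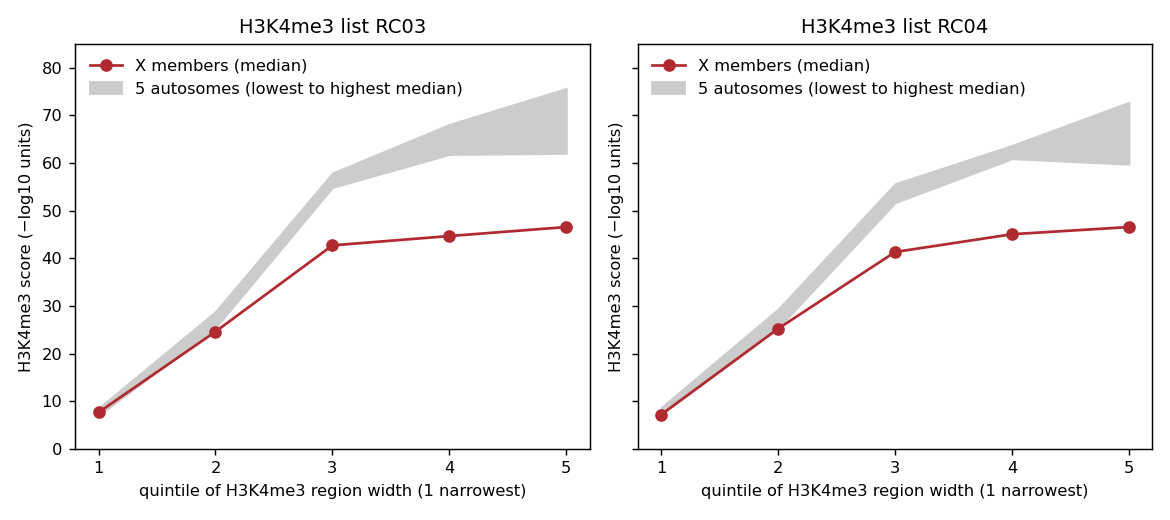
Median H3K4me3 score (y axis, −log10 units) of X members (red) in 5 groups of rising H3K4me3 region width (x axis), for the lists RC03 (left) and RC04 (right); the grey band spans the lowest to the highest autosomal median. The X line is just under the band in the second group, and from the middle group on it runs between 41.3 and 46.6, further below it.

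The position of CFP-1 relative to the mark also lay outside the range of the 5 autosomes. Of the members, 478 (57.2%) lay wholly inside their H3K4me3 region, 334 (40.0%) crossed one of its edges, and 23 (2.75%) enclosed it. On the autosomes, 61.7% (V) to 67.1% (III) lay wholly inside and 30.8% (III) to 34.7% (V) crossed an edge. The midpoints of CFP-1 and the mark were a median of 245 bp apart at the members and 188 bp (III) to 202 bp (V) apart on the autosomes. In single lists the same order was seen. CFP-1 peaks lay wholly inside an H3K4me3 peak in 47.9 to 50.6% of cases on X and 57.8 to 58.7% on the autosomes, over the 4 pairs of 1 CFP-1 and 1 H3K4me3 list. In the highest CFP-1 group 64.8% of the members were wholly inside the mark, against 76.8 to 84.5% on the autosomes, and in the lowest group 55.1% were, within the autosomal range of 49.8 to 60.0%. The H3K4me3 regions of the members had a median width of 1116 bp in the highest group, against 1345 to 1469 bp on the autosomes. In the fourth group it was 1211 bp, within 1181 to 1265 bp, and 61.0% were inside, against 73.4 to 77.4%. The part of width in the share inside was not tested.

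A larger share of the members than of the autosomal regions bridged a break in the mark, here only a gap between called H3K4me3 regions. A bridging region cannot lie wholly inside a single H3K4me3 region, so this is not separate from the lower share inside. A total of 106 members, or 12.7%, overlapped more than 1 H3K4me3 region, beside 6.70% (II) to 8.70% (III) on the autosomes. In the fourth and the highest CFP-1 group the share was 18.9% and 18.6%, against at most 10.1% and 12.7% on any autosome. The median gap between these neighbouring H3K4me3 regions was 82.5 bp (0 to 460 bp), taking the largest where there were several gaps. In 47 of the 106 the midpoint of CFP-1 lay in none of the overlapped H3K4me3 regions. On the autosomes the median gap was 92 bp (1 to 1331 bp), and the midpoint lay in none of them in 179 of 351 such regions. In single lists, 17.5 to 19.1% of CFP-1 peaks with the mark on X overlapped several H3K4me3 peaks, against 10.9 to 12.9% on the autosomes. The strongest example, at X:15840910-15841669, had CFP-1 scores of 168.2 in RC03 and 207.0 in RC04. Its left part overlapped an H3K4me3 region at X:15840901-15841112 that scored 6.27 and 7.67. After a gap of 52 bp its right part overlapped a region at X:15841165-15842089 that scored 78.4 and 77.4. At the next strongest, X:5164953-5165536, the gap was only 3 bp. Its left H3K4me3 region scored 2.51 and 2.11, near the lowest scores of the lists, and its right one 55.4 and 40.3. At X:9958420-9959051, with CFP-1 scores of 147.6 and 189.1, the left H3K4me3 region scored 18.3 and 10.6 and the right one 87.1 and 90.1, with 102 bp between them. The member at X:10568216-10569310, with CFP-1 scores of 134.4 and 148.0, overlapped H3K4me3 regions scoring 37.7 and 40.0 on the left and 94.9 and 63.3 on the right. In each of these examples the right one of the overlapped H3K4me3 regions scored higher than the left one in both lists. The order over all 106 bridging members was not counted, so it holds for the examples only. The part of region width in the larger share of bridging members and in these scores was not tested.

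**Figure D4:**
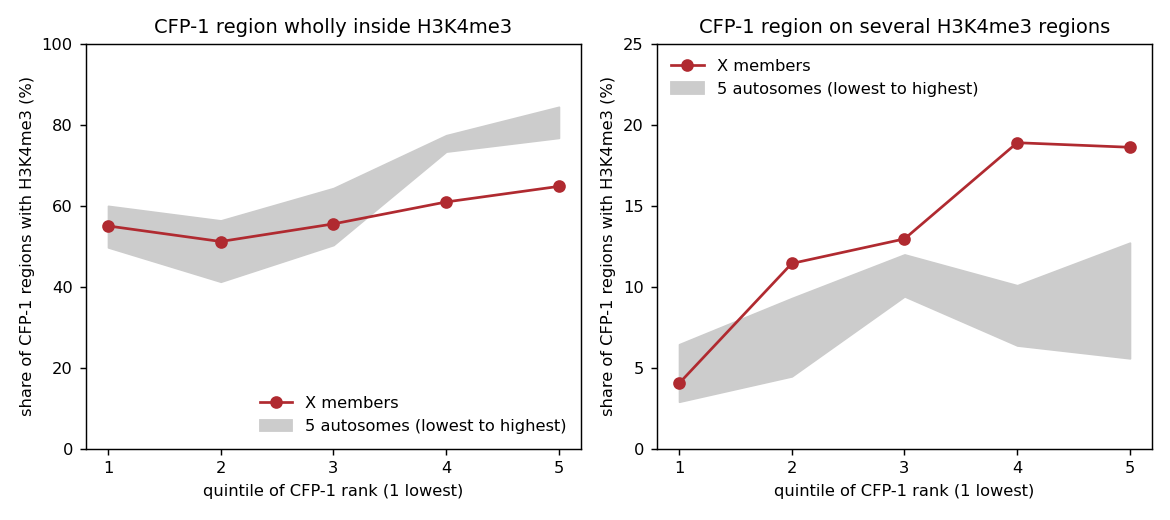
Share of CFP-1 regions with H3K4me3 (y axis, %) that lie wholly inside the mark (left) or overlap more than 1 H3K4me3 region (right), in 5 groups of rising CFP-1 rank (x axis), for X members (red) and the range of the 5 autosomes (grey). In the highest group 64.8% of the members are wholly inside and 18.6% overlap several H3K4me3 regions, both outside the autosomal range. The shares are linked, as a region on several H3K4me3 regions is never wholly inside the mark.

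The arrangement went with the strength of both signals. Members wholly inside the mark had median CFP-1 scores of 25.9 in RC03 and RC04 and median H3K4me3 scores of 42.6 and 41.3, in H3K4me3 regions of 1362.5 bp. Members at an edge had CFP-1 scores of 20.5 and 20.7 and H3K4me3 scores of 17.5 and 16.7, in regions of 656.5 bp. The part of width in this order was not tested. The same comparison on the autosomes gave CFP-1 medians of 35.0 and 37.9 inside and 17.2 and 17.3 at an edge. The autosomal H3K4me3 medians were 58.8 and 56.7 inside, above those of X. At an edge they were 14.7 in both lists, below those of X. Whether these contrasts differ from those on X was not tested.

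The strongest members reached the top of the CFP-1 lists. The first by rank, X:767890-768508, had CFP-1 scores of 187.8 in RC03 and 200.9 in RC04 and lay inside an H3K4me3 region at X:766989-769014 with scores of 85.8 and 71.6. It was followed by X:12393671-12394190 with CFP-1 scores of 191.7 and 188.9 and H3K4me3 scores of 61.4 and 55.7. The third, at X:15840910-15841669, is the bridging member described above. X:15181238-15181803 came next with CFP-1 scores of 174.6 and 186.8, and X:2687108-2687589 after it with 162.0 and 184.7. The H3K4me3 ranks of the 10 strongest CFP-1 members ran from 78.3 to 97.3. Only 10.9% of all members had an H3K4me3 rank under the 50th percentile, so the lack of low ranks among 10 says little. By the mean of a region's peaks the H3K4me3 rank fell from 88.9 to 69.0 at X:2687108-2687589. It fell from 87.8 to 74.0 at X:12393671-12394190. Of these 10, 5 crossed an edge of the mark, beside 40% of all members. One of the 10, X:6089376-6092779, was far wider than the others at 3404 bp and was split into 2 peaks in RC03 and 6 peaks in RC04. Its CFP-1 rank was 98.7 by its highest peak and 55.7 by the mean of its peaks, so its place among the 10 rests on the use of the highest peak.

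The members assigned to the strongest H3K4me3 regions had a wide range of CFP-1 ranks. The highest H3K4me3 scores, 125.6 in RC03 and 109.0 in RC04, were at X:16929239-16931409, where the CFP-1 region X:16929362-16931877 scored 81.8 and 108.1. The next H3K4me3 region, X:1445685-1446863, scored 121.8 and 104.1. The CFP-1 region inside it, X:1445982-1446256, scored 6.51 and 2.40, and a stronger CFP-1 region with scores of 108.5 and 142.8, X:1446661-1447253, crossed its right edge and was assigned to the neighbouring H3K4me3 region by its longer overlap. The 10 members ranked highest for H3K4me3 shared none with the 10 ranked highest for CFP-1. With 10 of 835 members in each set, no overlap is likely even between unrelated ranks. The CFP-1 ranks of the 10 highest for H3K4me3 ran from 15.5 to 97.1. The 10 include both members of X:13143159-13146402, which had CFP-1 scores of 106.1 and 111.0 at one and 22.2 and 36.9 at the other. With the mean of a region's peaks in place of the highest, the H3K4me3 ranks of the 10 ran from 77.8 to 98.8. Those at X:11603660-11605633 and X:9773628-9774988 stayed at 98.8 and 97.9, and the others were 86.6 or lower. The place of most of the 10 thus rests on the use of the highest peak.

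At single members the 2 signals could differ widely. The largest excess of the mark was at X:11295684-11295852, with CFP-1 scores of 3.06 and 2.29 inside an H3K4me3 region scoring 76.9 and 73.8. That H3K4me3 region also held a second member with CFP-1 scores of 53.5 and 54.0, at X:11296295-11297311. X:322423-322632 had CFP-1 scores of 3.02 and 3.79 and H3K4me3 scores of 74.7 and 67.3. In the other direction, X:13328843-13329156 had CFP-1 scores of 88.6 and 96.1 beside an H3K4me3 region of 370 bp that scored 4.54 and 4.29. X:15860546-15861087 had CFP-1 scores of 44.2 and 53.5 and shared 20 bp with an H3K4me3 region that scored 2.85 and 2.81. The lowest mean CFP-1 rank of the members was at X:5479066-5479278, which scored 2.69 (RC03) and 1.97 (RC04) for CFP-1, inside a mark of 2096 bp that scored 15.3 and 15.1. A second member in the same mark, X:5479986-5480644, scored 29.5 and 22.8 for CFP-1.

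Most H3K4me3 regions held a single member. Assigned by longest overlap, the members fell into 709 H3K4me3 regions, of which 603 held 1 member, 90 held 2, 12 held 3 and 4 held 4. The 106 H3K4me3 regions with several members had a median width of 1998.5 bp. Their members differed in strength, with a median of 31.0 percentile points between the highest and the lowest CFP-1 rank in the same H3K4me3 region. The region X:7066367-7069029, with H3K4me3 scores of 80.0 and 72.7, held CFP-1 regions of 135.2 and 194.7, 26.5 and 32.1, and 4.90 and 3.04 in RC03 and RC04. By contrast the 4 members of X:4335775-4339994 were of similar strength, with CFP-1 scores between 37.1 and 55.3 in RC03 and between 22.7 and 58.5 in RC04. The mark there scored 39.2 and 24.9. In X:2702862-2706353 a strong mark, 72.5 and 79.3, held 4 weak CFP-1 regions of at most 15.1 in RC03 and 9.75 in RC04. The widest H3K4me3 region with members, X:10592867-10599078, spanned 6212 bp and held 3, of which X:10597420-10597933 was the strongest at 66.3 and 54.5. The next widest, X:5817613-5822711, spanned 5099 bp and held 1 member, with CFP-1 scores of 47.4 and 36.2.

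Members were spread over the whole of X with moderate crowding. Their density was 47.1 per Mb, beside 35.7 (V) to 74.0 (I) per Mb for the autosomal regions with the mark. The median distance from a member to the next was 9906 bp, and 17.7% of these distances were under 1 kb, beside 17.7% (V) to 19.9% (II) on the autosomes. In 3 equal parts of the chromosome there were 295 members on the left, 282 in the centre and 258 on the right. X CFP-1 regions without the mark were fewest in the centre, at 16.3 per Mb, and had 22.9 per Mb on the left and 25.6 on the right. The share of CFP-1 regions with the mark was accordingly 68.6% on the left, 74.6% in the centre and 63.1% on the right. CFP-1 scores of the members were highest on the right, with medians of 26.5 in RC03 and 26.4 in RC04, against 19.9 and 19.5 in the centre. H3K4me3 medians there had the opposite order, 30.8 and 29.7 on the right and 34.0 and 32.3 in the centre. Each part was below the lowest autosomal H3K4me3 medians of 42.3 and 40.7.

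In windows of 100 kb the number of members ran from 0 in 5 windows to 13, with a median of 4 over 178 windows. The densest were X:2000001-2100000 and X:10500001-10600000 with 13 members each and X:4500001-4600000 with 12. The longest stretch without a member, X:15866478-16040194, covered 173717 bp and held 4 CFP-1 regions without the mark and 1 H3K4me3 region. The stretch X:2940821-3089483, the third longest, held 6 CFP-1 regions without the mark and 2 H3K4me3 regions.

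RC03 and RC04 gave similar values at the members. Across the members, Spearman's rho between the lists was 0.95 (CFP-1) and 0.96 (H3K4me3), beside 0.93 to 0.96 and 0.96 to 0.97 on single autosomes. The median difference between the lists was 4.09 percentile points for CFP-1 and 3.28 for H3K4me3. A difference over 20 points was found at 68 members (8.14%) for CFP-1 and at 37 (4.43%) for H3K4me3. Among the autosomal regions with the mark the shares were 9.34% for CFP-1 and 5.29% for H3K4me3, so the members did not stand out. The largest for CFP-1 was at X:3788516-3788862, which scored 2.65 in RC03 and 10.3 in RC04. The largest for H3K4me3 was at X:291977-295284, where the mark scored 2.18 in RC03 and 12.5 in RC04, whereas CFP-1 scored 29.2 in RC03 and 6.99 in RC04.

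**Figure D5:**
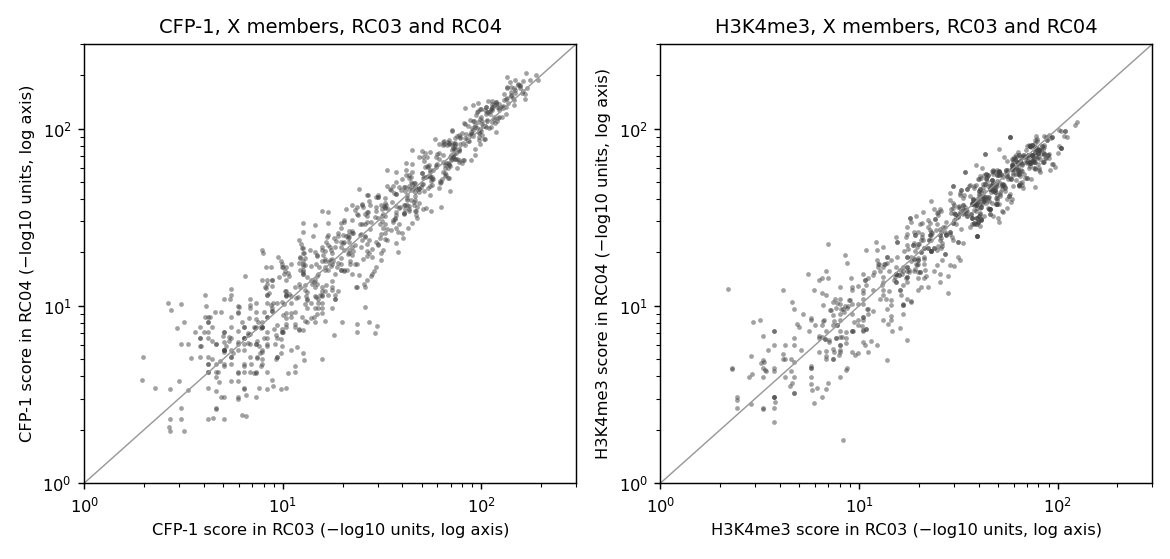
Score in RC03 (x axis) and RC04 (y axis), both in −log10 units on log axes, of CFP-1 (left) and H3K4me3 (right) at the 835 members, 1 point per member; the line marks equal scores. Points spread most at low scores; Spearman's rho is 0.95 on the left and 0.96 on the right.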

How the data were processed

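Per the submitters' processing notes, reads were aligned with BWA to build ce10 and peaks were called with MACS2 version 2.0.10, in 1 list per sample. The sources used here do not give its control, threshold or handling of duplicates. The authors deposited each peak's position and its score as −log10 of a p-value or of a q-value, without saying which. A larval stage stands in the peak names, whereas the labels say late embryos; the labels were followed. With no read depth in the files, its precision is unknown.

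Peaks were merged into regions as described above. A region took its highest peak in each list, and a CFP-1 region took the H3K4me3 region with the longest overlap. Percentile ranks are within a list. Positions are 1-based in ce10, and the last peak end served as the length of a chromosome. The gene table used here has coordinates of WBcel235, a different assembly, so no gene was assigned and the gene lists planned for a ce10 reference were not run.

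The members and the lists of regions named here were chosen with earlier results of these data known. Regions were named by rule: the highest and lowest CFP-1 and the highest H3K4me3 ranks, the largest differences between antibodies and between lists, the widest H3K4me3 regions, those with most members, the smallest overlaps and gaps, and the densest and emptiest stretches; some of those the rule selects are summarised only. Bridging members and the splits by CFP-1 rank and by width were chosen after values had been seen. Overlap counts were checked with bedtools 2.31.1 (835 of X) and on simulated data. The software was scipy 1.17.1, pandas 2.3.3, numpy 2.4.6, matplotlib 3.10.9 and Python 3.11.15.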

Additional observations from a re-analysis of the deposited data

Results flagged for a closer look

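The width of single peaks differed between X and the autosomes in opposite directions for the 2 antibodies. The median CFP-1 peak at a member was 356 bp wide in RC03 and 348 bp in RC04, against 337 and 338 bp at autosomal CFP-1 regions with the mark, ratios of 1.06 and 1.03. The median H3K4me3 peak in the H3K4me3 regions of members was 668 bp wide in RC03 and 629 bp in RC04, against 812 and 767 bp on the autosomes, ratios of 0.823 and 0.820. It was singled out because both lists of each antibody moved the same way and the antibodies moved apart. Under that condition the two-sided exact permutation test over the 4 lists can only give its lower limit, p = 0.33. The test therefore adds nothing to the widths, which are a description.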

How the results depend on the processing

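The differences in rank between X members and autosomal regions, and in H3K4me3 width, kept their direction under all alternatives but 1. The exception was the requirement that both intervals share at least 50% of their length. That setting left 132 members (10.8% of X CFP-1 regions) with differences from the autosomal regions of 5.0 points in CFP-1 rank, 1.39 points in H3K4me3 rank, 19.0 bp in H3K4me3 width and 25.5 bp in CFP-1 width; 39.4% lay wholly inside the mark, and they were 22.1 points above the other X regions in CFP-1 rank. The corresponding main values are 835 members, 68.6%, -3.43 and -4.01 points, -91.0 and 14 bp, 57.2% and 27.3 points, in the same order. With 50% of the shorter interval they were 59.5%, -4.92 and -4.99 points, -78.5 bp, 66.0% and 25.6 points. The higher-scored 50% of each list gave 496 members, 78.4%, -0.91 and -5.32 points, -80.0 bp, 62.3% and 12 points. All merged peaks of either list gave 62.3%, -4.70 points in H3K4me3 rank, -100.0 bp, a CFP-1 width difference of -1.0 bp, 54.4% inside and 30.7 points. A gap of up to 500 bp gave 72.2%, -97 bp, 54.4% and 23.7 points. Pairing same-numbered lists (the replicate block) gave 62.7%, -115.0 bp, 49.2% and 33.3 points, and lists of different numbers 63.2%, -4.35 points in H3K4me3 rank, -134.75 bp, 49.3% and 32.9 points. The labels do not say that a number marks a shared extract. Leaving out 1 list at a time gave shares of 61.4 to 70.3% with the mark, CFP-1 rank differences of 26.9 to 33.8 points from the other X regions and -5.15 to -2.93 points from the autosomes, H3K4me3 rank differences of -4.35 to -3.96 points, H3K4me3 widths of -115.5 to -96.0 bp, CFP-1 widths of 2.0 to 16.0 bp and 45.0 to 61.5% wholly inside. Without CFP-1 RC03 the CFP-1 width difference fell to 2.0 bp. Counting each H3K4me3 region once, chosen after seeing the data, gave -4.72 points and -112.0 bp, and the span of all overlapping H3K4me3 regions -44.0 bp. The cause of these shifts was not tested. Apart from the counts and the ranges over left-out lists, settings are given where the value moved by more than the SD of the 2 same-numbered list pairs. The log2 difference between the score ratios of CFP-1 and H3K4me3, 0.19, was positive in all 11 alternatives, at 0.12 to 0.33 with all lists and 0.09 without CFP-1 RC03. Of 104 ranks of named members, 81 moved by no more than the SD between lists when the mean of a region's peaks replaced the highest. The other 23 moved further. A region with 1 peak in each list has the same rank either way, so many of the 81 could not move, and their number does not measure stability. Most of the ranks that moved further were H3K4me3 ranks. Without read depth, a missing peak is not a missing mark.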

Other observations

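The widest CFP-1 members held 3 regions, chosen after their values were seen, at which the 2 lists differed in opposite directions for the antibodies. X:109523-114272, the widest at 4750 bp, had CFP-1 scores of 26.0 in RC03 and 9.80 in RC04, and H3K4me3 scores of 8.53 and 19.3. X:15807534-15811172 had CFP-1 scores of 29.9 and 7.70 and H3K4me3 scores of 7.01 and 22.2; it was 1 CFP-1 peak in RC03 and 7 in RC04, and it overlapped 8 H3K4me3 regions, the most of any member. X:291977-295284 had CFP-1 scores of 29.2 and 6.99 and H3K4me3 scores of 2.18 and 12.5. Other wide members did not share this order. X:4960319-4964369, of 4051 bp, had CFP-1 scores of 51.7 and 73.1 and H3K4me3 scores of 78.9 and 85.1, and X:4523571-4526608 had CFP-1 scores of 92.9 and 76.8 and H3K4me3 scores of 111.6 and 90.0.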
